A study of Mus musculus with 12 samples.

Results

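The 33 genes described here encode proteins of the postsynaptic scaffold and of synaptic adhesion. They were chosen by gene symbol from the 46078 gene IDs measured in hippocampal RNA of C57BL/6 mice at postnatal day 25, and all 33 were found and passed the filter on low values. They fall into 13 genes of the excitatory scaffold, 5 signalling proteins tied to that scaffold, 12 adhesion genes and 3 genes of the inhibitory postsynapse. The mice carried 1 copy of the Asn2373LysfsX2 frameshift allele of Chd8, the gene of a chromatin remodeller, or were wild type. The groups were mutant males, wild-type males, mutant females and wild-type females, with 3 RNA-seq libraries each and 12 in all. All 4 groups shared the strain background, the age and the tissue, and whether each library is a separate animal is not in the labels, so p-values measure only the spread between libraries.

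Levels are normalized read counts, that is, reads divided by 1 size factor per library. Chd8 itself, as a check of the labels, had 2383 to 2513 normalized counts in mutant libraries and 2751 to 2994 in wild-type libraries, a log2 fold change of -0.22 ± 0.03 averaged over the sexes (SE, limma adjusted p = 0.0289). Mutant libraries held 23721482 to 24654408 reads and wild-type libraries 26912998 to 33327314, so depth and genotype cannot be told apart. Markers of hippocampal neurons were present in every library: none of the 5 pyramidal, 3 CA1, 3 CA3 or 4 dentate granule cell markers was at 0. Markers of choroid plexus, a secretory tissue beside the hippocampus, set 3 libraries apart. The mean log2 level of its 11 markers was 5.46 to 6.08 in mutant male 2, mutant male 3 and wild-type female 1, and 9.95 to 11.7 in the other 9 libraries, and none of them was at 0 in any library. The range was 5.46 to 11.6 in mutant males, 11.4 to 11.7 in wild-type males, 10.2 to 11.3 in mutant females and 5.52 to 11.6 in wild-type females.

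At an excitatory synapse, presynaptic neurexins bind neuroligins and leucine-rich repeat proteins on the facing membrane. Below that membrane, membrane-associated guanylate kinases (Dlg proteins) hold receptors and adhesion proteins, Dlgap proteins link them to Shank proteins, and Shank proteins bind Homer and reach the actin cytoskeleton. Inhibitory synapses lack this scaffold and use gephyrin, with neuroligin 2 and Slitrk3 as adhesion partners. In the hippocampus these proteins set where glutamate and GABA receptors are held, and mutations in several of them are linked to autism and intellectual disability.

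Per kilobase of annotated exon, the scaffold genes spanned most of the range of these 33 genes. Dlg4, which encodes PSD-95, was highest with a mean of 1455 normalized counts per kb over the 12 libraries, followed by Dlgap3 with 1408 and Baiap2 with 1333. Lrrc4b had 1288, Shank1 had 1285, Nlgn2 had 1208 and Dlg3 had 1193 normalized counts per kb, and these 7 genes lay above all the others. Lrrtm4 with 85.8 and Lrrtm3 with 90.3 normalized counts per kb lay below all the others. Lrrtm4 shares 25.1% of its exon bases with another annotated gene, where reads cannot be assigned, so its level per kb may be understated. Of the 32 neighbouring pairs in this order, 29 had overlapping ranges over the 12 libraries. The 3 pairs that did not overlap were Dlg3 and Iqsec2, Shank2 and Dlg2, and Nlgn1 and Lrrtm3. Exon length is the union of all annotated exons, so a gene with many rarely used exons has a low level per kb.

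**Figure D1:**
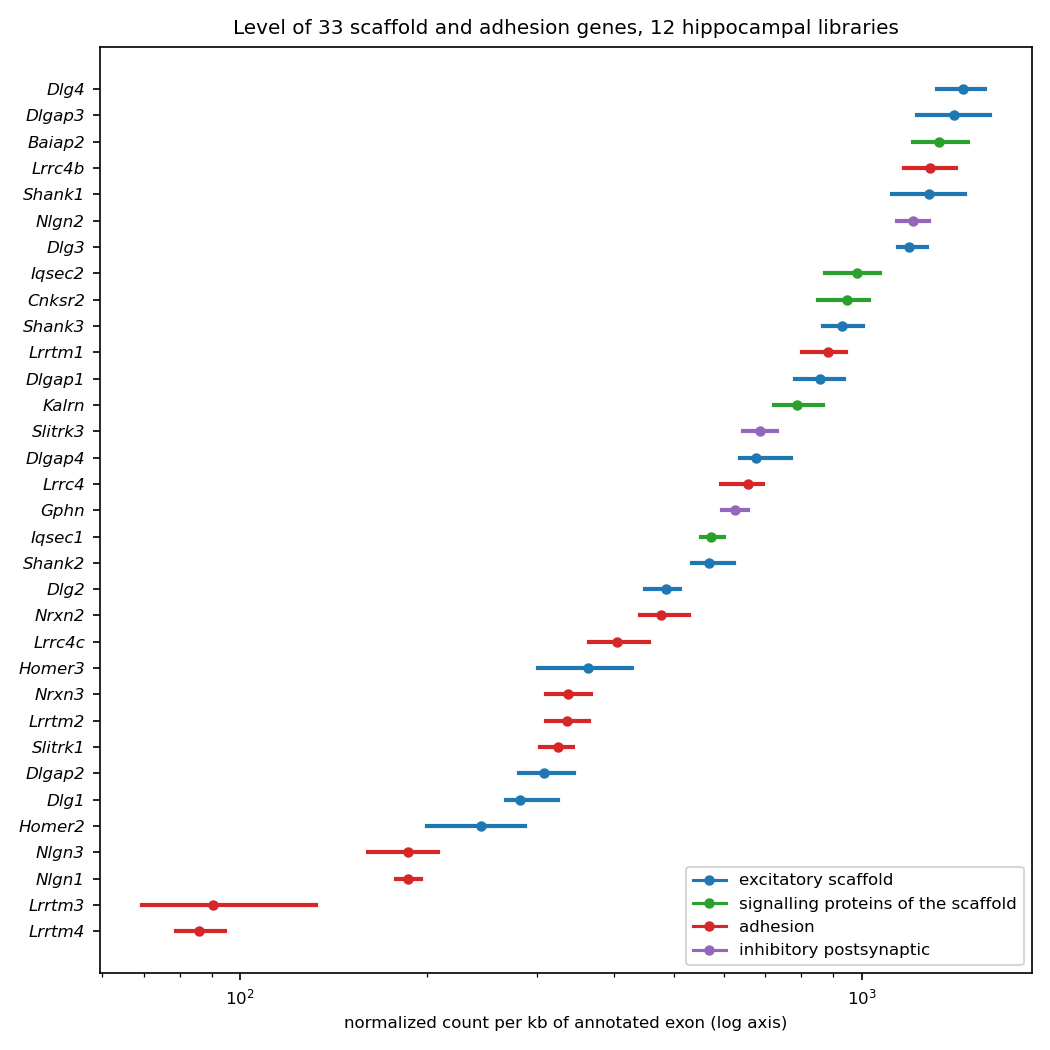
Mean level of each gene in normalized counts per kb of annotated exon (log axis), with points for the mean and lines for the range over 12 libraries, coloured by subgroup. Dlg4 leads with 1455, and Lrrtm3 and Lrrtm4 stand below the rest with 90.3 and 85.8.

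Members are given here as shares of their family's summed level per kb. Dlg4 made up 40.7% to 44.1% of the 4 Dlg genes over the 12 libraries, and Shank1 43.0% to 48.5% of the 3 Shank genes. Dlgap3 made up 41.4% to 45.5% of the 4 Dlgap genes. Lrrtm1 held 60.1% to 65.3% of the 4 Lrrtm genes, and Nlgn2 74.2% to 78.1% of the 3 neuroligins. The leading gene of each family was thus the same in every library. Nlgn3 and Lrrtm4 share 41.2% and 25.1% of their exon bases with other annotated genes, where reads cannot be assigned. Their shares may therefore be understated, and those of Nlgn2 and Lrrtm1 overstated. Among other members, Dlgap2 made up 9.65% to 10.4% of the Dlgap genes in males and 8.26% to 9.45% in females. These shares did not overlap, which was not tested, while the Dlgap2 counts themselves overlapped between the sexes. The shares of the other members of these families all overlapped between the sexes. A share also moves with the rest of its family, and the male minus female log2 difference of Dlgap3 was -0.10. Lrrtm3 made up 5.12% to 9.34% of the Lrrtm genes over the 12 libraries. The Nlgn3 share averaged 10.7% ± 0.24 in mutant females and 12.5% ± 0.90 in wild-type females (SD, n = 3 each), and the values of Nlgn3 behind it are given below with the adhesion genes.

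None of the 33 genes passed an adjusted p of 0.05 for genotype, in males, in females or averaged over the sexes. Among all 17496 tested genes, limma called 0.00572% (Chd8 alone) in the average, 0% in males and 0% in females. At an unadjusted p under 0.05, 4 of the 33 genes passed in the average, against 8.87% of all tested genes, and they were Nlgn3, Lrrtm1, Lrrc4 and Nrxn2. In males 4 passed, against 10.3% of all genes (Dlgap2, Lrrtm1, Lrrc4 and Nrxn2), and in females 1, against 6.9% (Nlgn3). The same counts of 0 after adjustment came from edgeR and from DESeq2, which called 0.429% of all genes in the average, 0.2% in males and 0.0629% in females. In whole tissue, fewer cells of a type and less RNA per cell cannot be told apart.

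The 95% intervals show the precision for each gene alone, from the spread between libraries. They do not allow for depth or for choroid plexus content. Leaving aside Lrrtm3, which varied most, the 95% intervals of the other 32 genes in the average over sexes lay between 14.2% lower (Homer2) and 14.7% higher (Dlgap3) in mutants. In males they lay between 15.0% lower (Homer2) and 24.0% higher (Homer3), and in females between 21.3% lower (Homer2) and 15.8% higher (Shank1). Over all 33 genes the interval spanned 0 for 29 in the average, 29 in males and 32 in females. The spread within groups was small: the SD of log2 levels had a median of 0.0744 over the 33 genes, against 0.112 over all tested genes. Their median level was 4245 normalized counts, against 465 over all tested genes, and the lowest number of reads for any of them in any library was 272 (Lrrtm3).

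**Figure D2:**
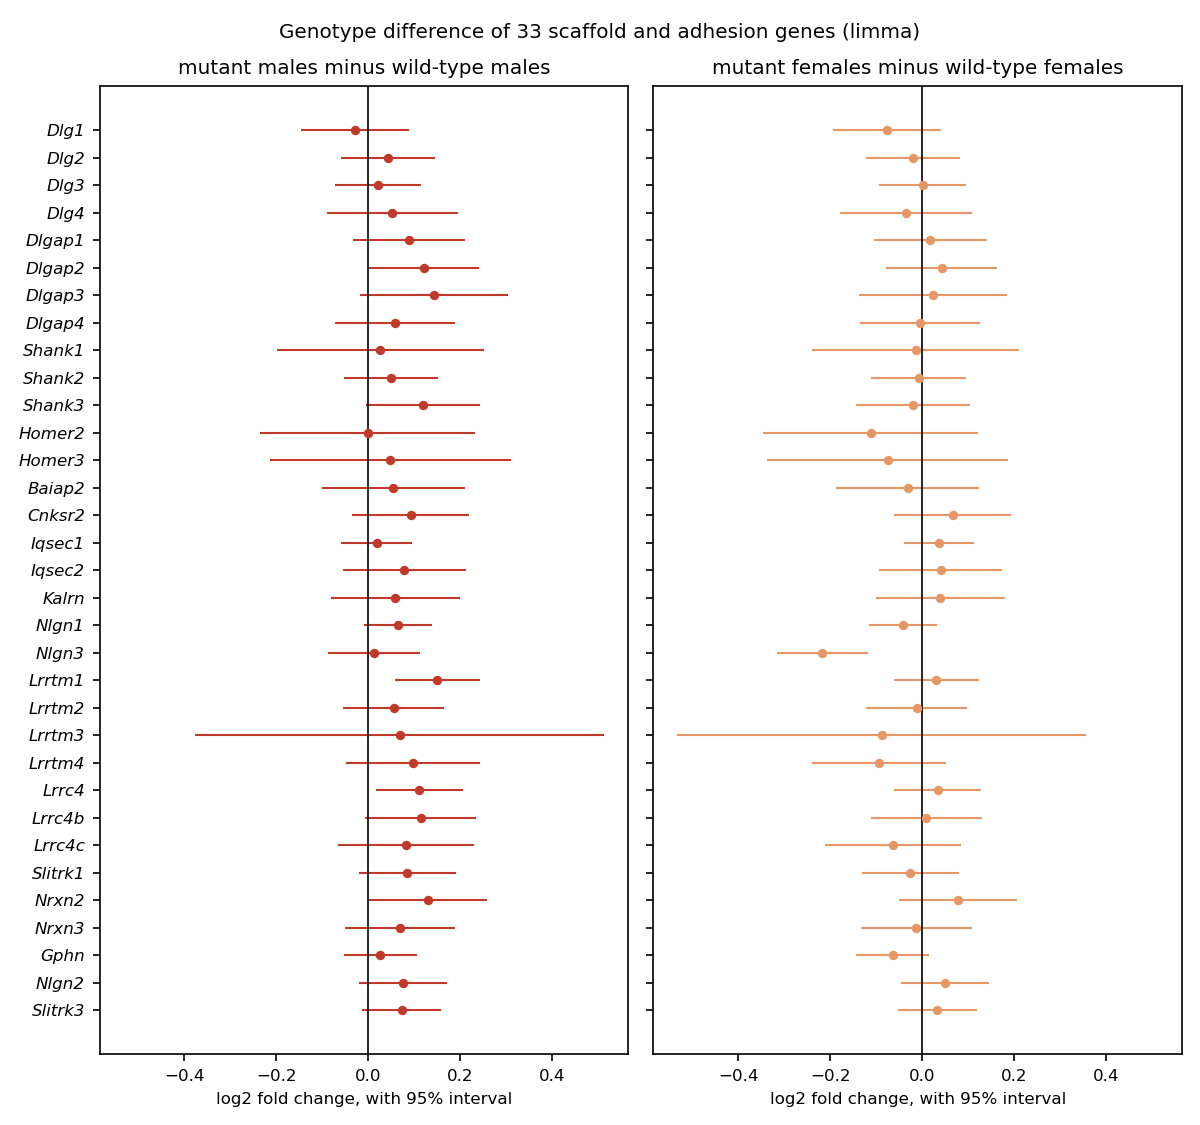
Log2 fold change of each gene with its 95% interval from limma, mutant males minus wild-type males on the left and mutant females minus wild-type females on the right. In males 31 of 33 points lie above 0 and in females 14, and in females Nlgn3 is the gene whose interval lies wholly below 0.

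The direction of these small differences was shared in males. Mutant males had the higher fitted mean for 31 of 33 genes, against 50.6% of all tested genes, with a median log2 fold change of 0.07 against 0.0017 over all tested genes. Mutant females had the higher mean for 14 of 33, against 50.5% of all tested genes, with a median of -0.01 against 0.0011. In 14 genes the mutant mean was higher in both sexes, in 17 it was higher in males and lower in females, and in 2 (Dlg1 and Homer2) it was lower in both. The difference between the sexes, the male minus the female genotype effect, was above 0 for 32 of 33 genes, against 51.6% of all genes, with a median of 0.08 against 0.0051. No gene passed that test after adjustment (0% of all genes in limma, 0.0171% in DESeq2), and 2 passed at an unadjusted p under 0.05, Nlgn1 and Nlgn3, against 7.85% of all genes. All 33 were read from the same libraries, so their number is not a number of independent observations.

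Of the 33 genes, 10 had all mutant male libraries above all wild-type male libraries, against 8.37% of all tested genes, and 0 had them below, against 7.68%. The 10 were Dlgap3, Shank3, Nlgn1, Lrrtm1, Lrrc4, Lrrc4b, Lrrc4c, Slitrk1, Nrxn2 and Slitrk3, of which 7 belong to the adhesion genes, 2 to the scaffold and 1 to the inhibitory postsynapse. In females 0 had all mutant libraries above, against 5.14%, and 3 had them below, against 5.66% (Nlgn1, Nlgn3 and Lrrtm4). Over both sexes no gene separated the 6 mutant from the 6 wild-type libraries, which 0.303% of all genes did upward and 0.24% downward.

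The counts by direction were also taken with the choroid plexus score in the model and without the libraries lowest in it. All 11 choroid plexus markers were lower in mutant males, with a median log2 fold change of -3.73. They were higher in mutant females, with a median of 1.74, and none passed the adjusted threshold (limma). The score was low in mutant male 2 and mutant male 3 and in no wild-type male. Its part and that of genotype in males therefore cannot be told apart, and the fits that follow do not separate them. With the choroid plexus score in the model, 22 of 33 genes were higher in mutant males (median 0.02), against 48.5% of all tested genes. In mutant females 23 of 33 were higher (median 0.02), against 49.8%. The male minus female difference was then above 0 for 14 of 33 genes, against 48.8%, with a median of -0.01. Without the 3 libraries lowest in these markers, mutant males are left with 1 library. The counts were then 24 of 33 in males (median 0.02), against 49.9% of all tested genes. They were 20 of 33 in females (median 0.01), against 50.3%, and 15 of 33 for the difference (median -0.01), against 49.3%. None of the markers of the other 14 cell types passed the adjusted threshold for genotype either (limma), and no marker was at 0 in any library.

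Neuronal marker lists differed among themselves. The 5 pyramidal markers were higher in mutant males for 5 of 5 (median log2 fold change 0.15) and in mutant females for 3 of 5 (median 0.01). Their mean log2 level was 12.7 to 12.9 in mutant males, 12.5 to 12.8 in wild-type males, 12.7 to 12.8 in mutant females and 12.5 to 12.9 in wild-type females. CA1 markers were higher for 1 of 3 in mutant males (median -0.0024) and 2 of 3 in mutant females (median 0.06), and CA3 markers for 2 of 3 in mutant males (median 0.13) and 0 of 3 in mutant females (median -0.02). Dentate granule cell markers were higher for 3 of 4 in both sexes (median 0.06 in males and 0.03 in females), and inhibitory neuron markers for 5 of 6 in both (0.02 and 0.07). So 2 of these 5 lists, pyramidal and CA3, had a larger share of higher markers in males than in females, as the 33 genes had.

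Among the other lists, astrocyte markers were higher for 5 of 5 in mutant males (median 0.08) and 1 of 5 in mutant females (median -0.01), and microglial markers for 3 of 4 (0.03) and 1 of 4 (-0.03). Oligodendrocyte markers were lower in the average for 5 of 5 (median -0.23, all 5 with an unadjusted p under 0.05), and ependymal markers for 4 of 4 (median -0.30). Oligodendrocyte precursor markers were higher for 2 of 3 in the average (median 0.0061) and endothelial markers for 3 of 3 (median 0.05). For pericytes and smooth muscle, 4 of 4 markers had the higher mean in the average (median 0.66), and all 4 had an unadjusted p under 0.05. Fibroblast markers were also higher for 4 of 4 (median 0.66), with a median of 0.20 in males and 1.12 in females. Red blood cell markers were higher for 0 of 3 in mutant males (median -0.18) and 3 of 3 in mutant females (median 0.70). The mean log2 level of the pericyte and smooth muscle markers was 10.02 to 11.2 in mutant females and 9.86 to 9.89 in wild-type females. That of the fibroblast markers was 9.00 to 10.1 and 8.05 to 8.55, so neither overlapped. The female groups also did not overlap for oligodendrocyte markers (15.04 to 15.22 in mutants, 15.27 to 15.48 in wild type) or red blood cell markers (7.73 to 8.22 and 7.06 to 7.56). In males the ependymal markers did not overlap (7.14 to 7.73 in mutants, 7.82 to 8.06 in wild type). The part of any of these lists, choroid plexus included, in the results on the 33 genes was not tested.

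**Figure D3:**
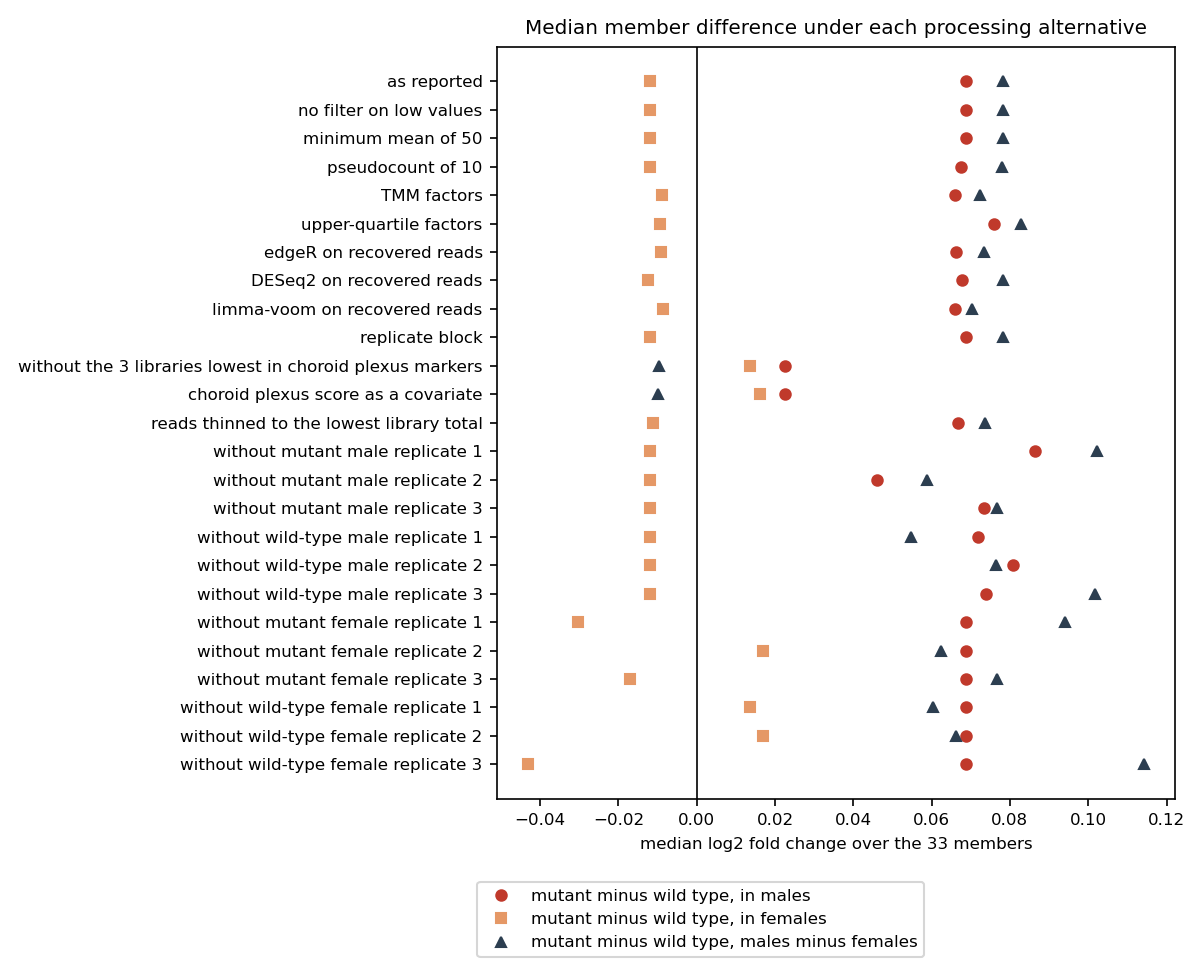
Median log2 fold change over the 33 genes under each processing alternative, for mutant minus wild-type males (circles), mutant minus wild-type females (squares) and the male minus female difference (triangles). The male median falls to 0.02 with the choroid plexus score in the model or without the 3 libraries lowest in it, and the triangles then lie below 0.

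Among the 13 genes of the excitatory scaffold, mutants had the higher mean for 11 in males (median log2 fold change 0.05), 4 in females (median -0.01) and 10 in the average (median 0.01). Dlgap2, a SAPAP protein between PSD-95 and Shank, had 1891, 2083 and 2116 normalized counts in mutant males, against 1759.9, 1876 and 1960.2 in wild-type males. In females it had 1905, 1827 and 1859.9 in mutants, against 1781, 1919 and 1730.3 in wild type. The groups overlapped in both sexes, with a log2 fold change of 0.12 ± 0.06 in males (SE, limma adjusted p = 0.48). The highest values, 2083 and 2116, came from mutant male 2 and mutant male 3, both low in choroid plexus markers. The average over sexes was 0.08, and 0.03 to 0.11 over the 24 alternatives. Dlgap3, the SAPAP protein with the highest level per kb here, had 6209, 6706 and 6436 normalized counts in mutant males, all above the 5553, 6012 and 5956 of wild-type males. In females mutants had 7269, 6113 and 6527 against 7033, 6762 and 5803 in wild type, which overlapped. Its log2 fold change was 0.14 ± 0.07 in males (limma adjusted p = 0.532) and 0.02 ± 0.07 in females.

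Dlg1, which encodes SAP97, a carrier of AMPA receptors, was one of the 2 genes with the lower mean in mutants of both sexes. Its levels were 2875, 2911 and 3069 normalized counts in mutant males and 2979.9, 3027 and 3019 in wild-type males. In females they were 3004, 2959.9 and 3003 in mutants and 3486, 2918 and 3078 in wild type. Wild-type female 1, a library low in choroid plexus markers, was the highest and the other 11 libraries overlapped. The log2 fold change of -0.08 ± 0.05 in females (limma adjusted p = 0.838) shrank to -0.0039 at the near end of the alternatives and reached -0.13 at the far end. The 3 Shank genes, the scaffolds that join Dlgap and Homer proteins, had log2 fold changes of 0.03 (Shank1), 0.05 (Shank2) and 0.12 (Shank3) in males and of -0.01, -0.01 and -0.02 in females. Shank3 had 8549.6, 9248 and 8759 normalized counts in mutant males, above the 8019, 7979 and 8433 of wild-type males, and in females mutants had 9164, 8194 and 8196 against 8722, 9188 and 8010.0. Its male difference of 0.12 ± 0.06 had a limma adjusted p of 0.499. PSD-95 itself did not separate: Dlg4 averaged 19419 ± 823 normalized counts in mutant males and 18728 ± 1099 in wild-type males, and 19246 ± 1025 in mutant females and 19750.3 ± 1703 in wild-type females (SD, n = 3 each). Homer2 and Homer3, which bind Shank and group I metabotropic glutamate receptors, varied most within groups in this subgroup, with SDs of log2 levels of 0.157 and 0.175. Homer3 shares 25.4% of its exon bases with Ddx49 on the opposite strand, and the library kit does not keep the strand, so reads of that stretch cannot be assigned.

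All 5 signalling genes of the scaffold had the higher mean in mutant males (median log2 fold change 0.06) and 4 had it in mutant females (median 0.04), with 5 in the average (median 0.05). Cnksr2, an X-linked scaffold of Ras signalling, had 8519, 9536 and 9335 normalized counts in mutant males and 8355, 8448 and 8854 in wild-type males. Its levels in females were 8967, 8707 and 9116 in mutants and 8402, 9343 and 7888 in wild type. Groups overlapped in both sexes, and the average log2 fold change was 0.08 ± 0.04 (SE, limma adjusted p = 0.602). Iqsec2, an X-linked exchange factor for Arf6, had 6643, 7482 and 7013 in mutant males against 6576, 6666 and 6754 in wild-type males, and 7273, 6724 and 6864 in mutant females against 6992, 7245 and 6085 in wild-type females. Those ranges overlapped too, with an average of 0.06 ± 0.04 (limma adjusted p = 0.725). The other 3 were closer to 0 in the average: Kalrn, a signalling protein of dendritic spines, at 0.05, Iqsec1 at 0.03 and Baiap2, an actin regulator also known as IRSp53, at 0.01.

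The adhesion genes held the largest difference of the 33 in each sex. All 12 had the higher mean in mutant males (median log2 fold change 0.08), 4 had it in mutant females (median -0.02) and 10 in the average (median 0.03). Nlgn3, an X-linked neuroligin found at excitatory and inhibitory synapses (X, 101299168 to 101325963, plus strand, GRCm38), had 1637, 1490.3 and 1604 normalized counts in mutant females, against 1786, 1783 and 1930.3 in wild-type females. In males it had 1791, 1715 and 1761 in mutants, against 1775, 1747 and 1699 in wild type. All 3 mutant females lay below all wild-type females, while the male groups overlapped. The log2 fold change in females was -0.22 ± 0.05, or 14.0% lower with a 95% interval of 7.81% to 19.7% lower (SE, limma unadjusted p = 0.000465, adjusted p = 0.584). It was -0.24 to -0.18 over the 24 alternatives, with adjusted p of 0.0623 (DESeq2) to 0.924, so it passed under none of them. In males the log2 fold change was 0.01 ± 0.05, and the male minus female difference was 0.23 ± 0.06 (limma unadjusted p = 0.0039, adjusted p = 0.619). This female difference stayed as large with the choroid plexus covariate (-0.24) and without the 3 libraries lowest in those markers (-0.23). Gm21986, an annotated gene on the same strand, overlaps 41.2% of the Nlgn3 exon bases, and its own level was 13.6 to 35.7 normalized counts. Reads in that stretch cannot be assigned to Nlgn3 alone.

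Nlgn1, the neuroligin of excitatory synapses, had 2619.6, 2583 and 2613 normalized counts in mutant males, all above the 2537, 2408 and 2529.9 of wild-type males. In females mutants had 2427, 2398 and 2393, and wild type had 2428, 2434 and 2569. The mutant females lay below the wild-type females by a margin of less than 1 normalized count between the closest libraries. Its log2 fold change was 0.06 ± 0.03 in males and -0.04 ± 0.03 in females, and their difference was 0.11 ± 0.05 (SE, limma unadjusted p = 0.0485, adjusted p = 0.636). It was also the gene with the smallest spread within groups, with an SD of log2 levels of 0.0322. Lrrtm4, a leucine-rich repeat protein that binds heparan sulfate proteoglycans and is known from dentate granule cells, had 580, 564 and 497 normalized counts in mutant males against 513, 526 and 490 in wild-type males. In females it had 485, 524 and 517 in mutants against 527, 566 and 536 in wild type. The male groups overlapped and the female groups did not, with log2 fold changes of 0.10 ± 0.07 in males and -0.09 ± 0.07 in females and a difference of 0.19 ± 0.09 (limma adjusted p = 0.662). Lrrtm4 shares 25.1% of its exon bases with Gm4409 on the opposite strand, so reads of that stretch cannot be assigned, and the level of Gm4409 itself was 0 to 1.11 normalized counts.

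**Figure D4:**
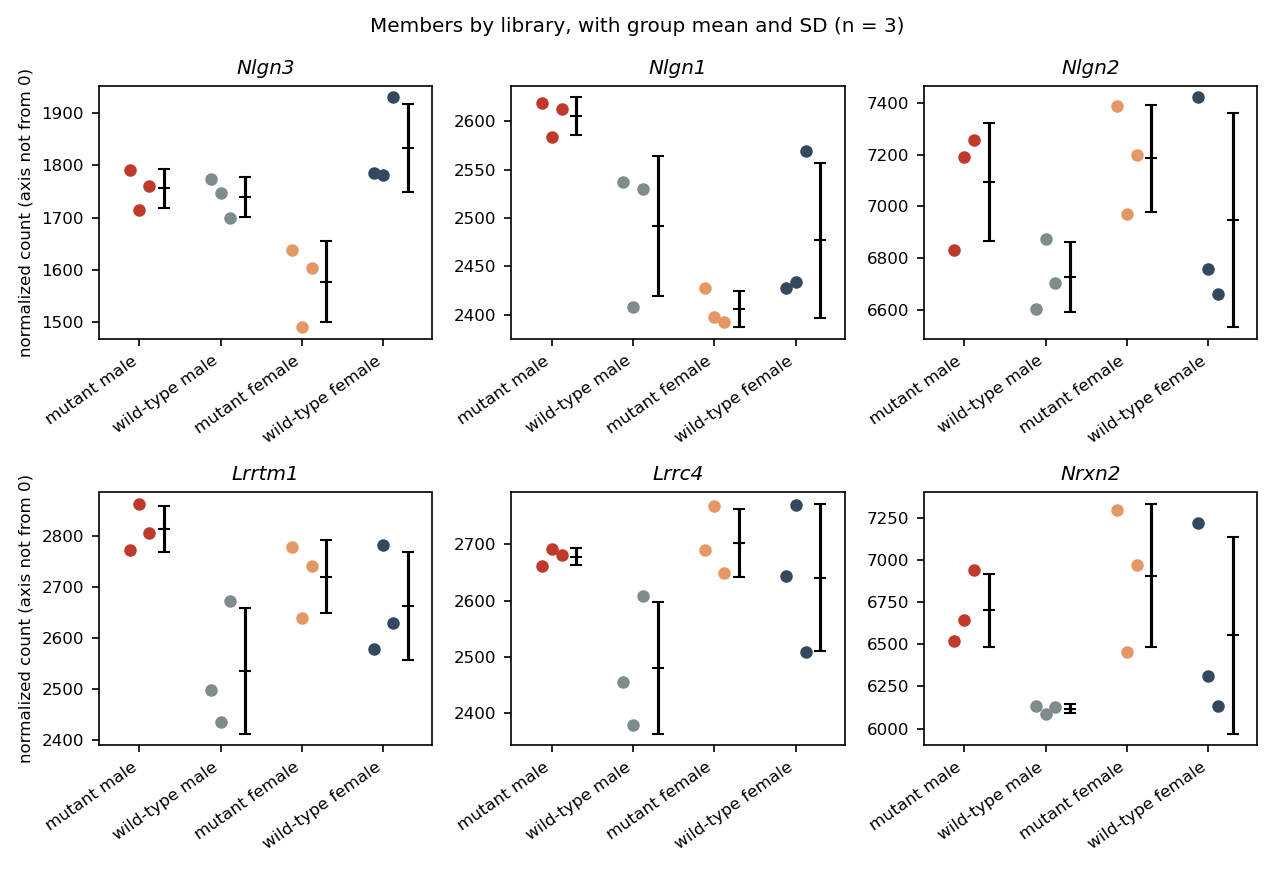
Normalized counts of 6 genes in each library (points), with the group mean and SD (bars, n = 3); the vertical axes do not start at 0. Mutant females lie below wild-type females for Nlgn3, and mutant males lie above wild-type males for Nlgn1, Lrrtm1, Lrrc4 and Nrxn2, while the 2 female groups overlap for Lrrtm1, Lrrc4 and Nrxn2.

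Lrrtm1, a postsynaptic ligand of neurexins, had 2772, 2862 and 2806 normalized counts in mutant males, against 2498, 2435 and 2673 in wild-type males. In females it had 2778, 2639.7 and 2740.1 in mutants, against 2578, 2781 and 2629 in wild type. Male groups did not overlap and female groups did. The log2 fold change in males was 0.15 ± 0.04, with a 95% interval of 4.14% to 18.4% higher (SE, limma adjusted p = 0.407; 0.131 to 0.713 over the alternatives), and 0.03 ± 0.04 in females. Lrrc4, also called NGL-2, binds netrin-G2 on axons. It had 2662, 2692 and 2681 normalized counts in mutant males, against 2455, 2378 and 2607 in wild-type males, and 2690.3, 2769 and 2649.6 in mutant females, against 2643, 2771 and 2509 in wild-type females. Again the males separated and the females overlapped, with log2 fold changes of 0.11 ± 0.04 in males (limma adjusted p = 0.449) and 0.03 ± 0.04 in females. With the choroid plexus covariate the male log2 fold changes were 0.16 for Lrrtm1 and 0.09 for Lrrc4.

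Nrxn2 encodes a presynaptic neurexin, the partner of neuroligins and Lrrtm proteins. It had 6520.2, 6647 and 6941 normalized counts in mutant males, against 6136, 6088 and 6129 in wild-type males. The female values were 7300.1, 6454 and 6974 in mutants and 7224, 6312 and 6131 in wild type. Males did not overlap and females did, with log2 fold changes of 0.13 ± 0.06 in males (SE, limma adjusted p = 0.476) and 0.08 ± 0.06 in females. With the choroid plexus covariate the male value was 0.05. The other 6 adhesion genes had log2 fold changes of 0.06 (Lrrtm2) to 0.11 (Lrrc4b) in males and of -0.09 (Lrrtm3) to 0.01 (Lrrc4b) in females. They include Lrrc4b and Lrrc4c, the partners of LAR-type phosphatases and of netrin-G1, Slitrk1, which binds receptor phosphatases across the cleft, and the neurexin Nrxn3. Lrrtm3 was the least precise of all, with 295 to 562 normalized counts over the 12 libraries and an SD of log2 levels of 0.298 within groups.

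Genotype was also permuted within each sex for the 14 genes named by rule, an exact two-sided test with 400 arrangements and no p below 0.005. Lrrtm1 had the smallest exact p, 0.035, followed by Nrxn2 with 0.05 and Lrrc4 with 0.055. Nlgn2 had an exact p of 0.07, and Nlgn3 and Dlgap2 had 0.075 each. The rule took genes with the smallest limma p in these same libraries, plus the X-linked genes. Neither the exact p-values nor their adjustment over the 14 genes alone allows for that choice. The smallest adjusted value was 0.175, and no conclusion is drawn from it. The permutation test is of the average over sexes. There the mean differences in log2 level were 0.09 for Lrrtm1, 0.10 for Nrxn2, 0.07 for Lrrc4, 0.06 for Nlgn2, -0.10 for Nlgn3 and 0.08 for Dlgap2.

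The 3 genes of the inhibitory postsynapse differed by less than 0.1 on the log2 scale in either sex. Nlgn2, the neuroligin of inhibitory synapses, had 6833, 7192 and 7259 normalized counts in mutant males, against 6603, 6874 and 6703 in wild-type males. Its female values were 7387, 6970.5 and 7199.8 in mutants and 7422, 6758 and 6661 in wild type. Both pairs of groups overlapped, with log2 fold changes of 0.08 ± 0.04 in males and 0.05 ± 0.04 in females (SE) and an average of 0.06 ± 0.03 (limma adjusted p = 0.583). Gphn, which encodes gephyrin, the scaffold that anchors glycine and GABA-A receptors, had 2382, 2403 and 2347 normalized counts in mutant males, against 2347, 2249 and 2406 in wild-type males. In females it had 2259, 2334 and 2239 in mutants and 2326, 2462 and 2354 in wild type. These groups overlapped as well, and the log2 fold change in females was -0.06 ± 0.04 (limma adjusted p = 0.793). Slitrk3, an adhesion protein that binds PTPδ at inhibitory synapses, had 3321, 3545 and 3392 normalized counts in mutant males, all above the 3282, 3174 and 3293 of wild-type males. The female groups overlapped, at 3354, 3423 and 3298 in mutants and 3124, 3414 and 3315 in wild type. Its log2 fold change was 0.07 ± 0.04 in males (limma adjusted p = 0.549) and 0.03 ± 0.04 in females.

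Promoters are shown for the 2 adhesion genes with the smallest p in males among those with RefSeq entries, and for 2 inhibitory genes as a contrast in CpG content, since CHD8 is known to bind near the start sites of active genes. Each is the 300 bases from 250 before to 50 after the annotated start, from RefSeq on GRCm38.p6, written 5′ to 3′ on the gene's strand, with CG in capitals. Lrrtm1 (chr6:77242227-77242526, plus strand) holds 7 CpG sites, Lrrc4 (chr6:28831698-28831997, minus strand) 10, Nlgn2 (chr11:69837735-69838034, minus strand) 26 and Gphn (chr12:78226405-78226704, plus strand) 42. Nlgn2 and Gphn were picked for this contrast. Slitrk3, the other inhibitory gene, held 9 CpG sites, fewer than Lrrc4, so the contrast does not separate the subgroups.
Lrrtm1: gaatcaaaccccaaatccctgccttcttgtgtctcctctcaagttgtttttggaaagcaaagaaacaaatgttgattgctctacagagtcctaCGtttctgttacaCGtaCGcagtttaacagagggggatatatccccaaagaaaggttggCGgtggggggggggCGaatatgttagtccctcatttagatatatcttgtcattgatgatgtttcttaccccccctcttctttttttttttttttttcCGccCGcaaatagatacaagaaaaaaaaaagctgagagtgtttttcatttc
Lrrc4: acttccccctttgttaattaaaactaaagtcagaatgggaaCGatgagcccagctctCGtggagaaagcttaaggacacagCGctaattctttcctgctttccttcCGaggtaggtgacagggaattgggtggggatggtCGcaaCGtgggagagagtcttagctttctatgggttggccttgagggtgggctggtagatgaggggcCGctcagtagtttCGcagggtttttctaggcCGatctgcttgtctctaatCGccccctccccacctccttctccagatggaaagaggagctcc
Nlgn2: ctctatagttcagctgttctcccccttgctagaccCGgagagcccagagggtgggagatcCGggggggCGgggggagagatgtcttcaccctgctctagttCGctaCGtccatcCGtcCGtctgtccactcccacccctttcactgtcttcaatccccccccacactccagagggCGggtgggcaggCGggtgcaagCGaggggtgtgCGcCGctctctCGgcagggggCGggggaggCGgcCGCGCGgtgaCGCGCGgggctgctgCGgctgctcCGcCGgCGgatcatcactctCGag
Gphn: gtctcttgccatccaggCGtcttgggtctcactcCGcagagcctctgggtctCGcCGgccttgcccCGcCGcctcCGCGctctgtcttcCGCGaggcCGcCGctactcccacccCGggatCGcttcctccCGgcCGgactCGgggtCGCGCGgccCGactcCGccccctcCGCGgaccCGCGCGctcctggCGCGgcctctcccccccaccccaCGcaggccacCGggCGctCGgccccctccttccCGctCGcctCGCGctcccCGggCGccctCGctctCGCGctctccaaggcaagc
The table held promoters for 27 of the 33 genes. The motif counted was CG, which reads the same on both strands. The median over those genes was 11 CpG sites per promoter, against 19 over 12448 tested genes, and 17 of the 27 (63.0%) held 10 or more, against 78.3%. No binding was measured here, and these counts describe letters only.

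Sex differences, as males minus females averaged over the genotypes, were also small. No gene of the 33 passed the adjusted threshold, against 0.0686% of all tested genes in limma and in edgeR and 0.274% in DESeq2, and the 12 genes limma called lay on Y (6), X (5) and chromosome 10 (1). At an unadjusted p under 0.05, 1 of the 33 passed, against 6.64% of all genes. This was Nlgn1, with a log2 difference of 0.06 ± 0.02 (limma adjusted p = 0.654), whose library values are given above. Males had the higher mean for 13 of 33 genes, against 47.7% of all genes, with a median of -0.01, and this median was between -0.04 without wild-type female 3 and 0.01 without wild-type female 2. No gene separated the 6 male from the 6 female libraries, which 0.274% of all genes did upward and 0.194% downward. Dlgap2 differed by 0.08 ± 0.04 (limma adjusted p = 0.759) and Dlgap3 by -0.10 ± 0.05 (limma adjusted p = 0.794). Over the 24 alternatives these differences were 0.03 to 0.11 for Dlgap2 and -0.14 to -0.06 for Dlgap3.

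Of the 33 genes, 4 are X-linked, and X-linked genes are present once in males and are silenced on 1 copy in females. Dlg3, which encodes SAP102, had 6837, 7440.4 and 6999 normalized counts in mutant males and 6929.7, 6892 and 7129.8 in wild-type males. Its female values were 6796, 6818 and 7117 in mutants and 6689, 7325 and 6708 in wild type. All 4 groups overlapped. The male minus female log2 difference was 0.03 ± 0.03 for Dlg3, 0.02 ± 0.04 for Cnksr2, 0.04 ± 0.03 for Nlgn3 and -0.0006 ± 0.04 for Iqsec2 (SE). The signs of Dlg3, Cnksr2 and Iqsec2 turned under some alternatives. For comparison, the median over the 605 X-linked genes tested was 0.0071, and 5 of those passed the adjusted threshold.

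In the heatmap of deviations the extremes fell in a few libraries. Wild-type female 3 was the lowest library for 10 of the 33 genes, where 9.19% of all tested genes had their lowest value. Wild-type male 1 was lowest for 7, against 7.98% of all tested genes. Mutant male 2 was highest for 10, where 9.73% of all genes had their highest value, and wild-type female 1 was highest for 8, against 13.7%. The number of genes higher in mutant females was 14 of 33 with all libraries, against 50.5% of all tested genes. Without wild-type female 3 it was 8 (median -0.04), against 48.7%. It was 20 without wild-type female 1 (median 0.01), against 50.35%, and 20 without wild-type female 2 (median 0.02), against 50.7%. Without mutant female 2 it was 21 (median 0.02), against 51.2%. So the female direction rests on single libraries. In males, 26 of 33 were higher without mutant male 2 (median 0.05), against 49.6% of all tested genes. In the average, 27 of 33 were higher with all libraries, against 49.9% of all genes, with a median of 0.03. Without wild-type female 3 the count was 22 (median 0.02), against 49.4%.

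**Figure D5:**
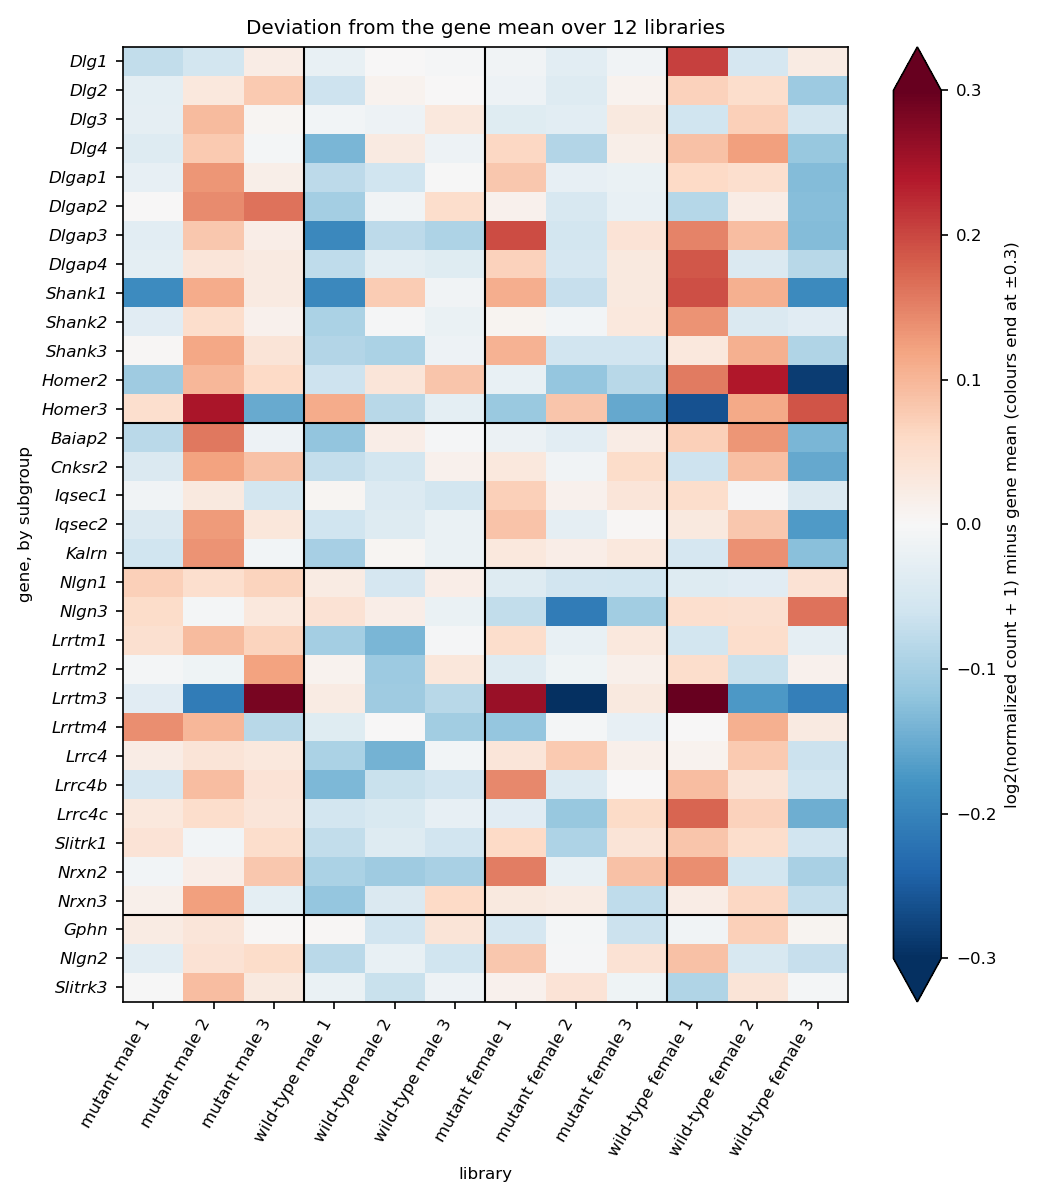
Deviation of log2(normalized count + 1) from each gene's mean over 12 libraries, with genes in rows by subgroup, libraries in columns by group, red for above and blue for below the mean, and colours ending at 0.3 in either direction. Mutant male 2 is mostly red and wild-type female 3 mostly blue, and Lrrtm3, Homer2 and Homer3 show the strongest single values.

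Other genes of the same synapses were read from a list of 72, of which 71 were matched and tested. Camk2a and C1ql2 on it are also markers in the pyramidal and dentate granule lists. None of the 71 passed the adjusted threshold in any comparison. Without the choroid plexus score in the model, mutants had the higher mean for 61 of 71 in males (median log2 fold change 0.08), against 50.6% of all tested genes. The counts were 37 in females (median 0.0022), against 50.5%, and 59 in the average (median 0.04), against 49.9%. The 2 with the smallest p in the average were C1ql3, a secreted ligand of the adhesion receptor Adgrb3, at 0.15 ± 0.05 (SE, limma adjusted p = 0.407), and Slitrk5 at 0.09 ± 0.03 (limma adjusted p = 0.469). In males Lrfn1, an adhesion protein that binds PSD-95, was at 0.17 ± 0.06 (limma adjusted p = 0.423). In females Flrt2, a ligand of latrophilins, had 0.16 ± 0.07 (limma adjusted p = 0.71) and Dag1, which encodes dystroglycan, had 0.09 ± 0.04 (limma adjusted p = 0.713). The male minus female difference of Cadm3, an adhesion protein, was 0.13 ± 0.04 (limma adjusted p = 0.619). For sex, Lrfn3 had -0.15 ± 0.04 (limma adjusted p = 0.509) and Gabarap, which binds GABA-A receptors, had -0.06 ± 0.02 (limma adjusted p = 0.584).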

How the data were processed

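Libraries came from the TruSeq v2 kit, per the labels' protocols, which loses the strand of a transcript. Trimmomatic 0.35, TopHat2 2.1.0, HTSeq, DESeq2 and GRCm38 stand in the submitters' processing notes without roles, with an annotation release not given in the sources used here. Each deposited value is a signal, the reads of an Ensembl gene over the size factor of its library: every value was a whole multiple of 1 step per library (0.807 to 1.13), 100% within 1e-04 reads. Of 46078 IDs, 45143 had a symbol in GENCODE M21, which also gave coordinates and exon lengths.

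Values were taken as log2(value + 1), which understates the change of low genes. The 17496 genes whose mean reached 10 were fitted with limma 3.58.1 in R 4.3.3 (trend option, all 12 libraries, a mean for each group), and p-values were adjusted over all of them by the Benjamini-Hochberg method at 0.05. The design named this fit for the deposited values, and edgeR in case they turned out to be raw counts. edgeR 4.0.16 and DESeq2 1.42.0 ran on recovered reads among 24 alternatives. The fit was tested on simulated data. Single genes were also tested by exact permutation. Libraries within a group differed by 3.38 to 30.0 in chi-square per degree of freedom, so none were duplicates. Groups and replicate numbers came from sample titles.

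The genes, subgroups and lists were chosen with earlier results of these data known. Genes with library values are the 6 with the smallest p in the average, the 3 smallest in each other comparison, the X-linked ones and, after their values were seen, Shank3 and Slitrk3. The 15 marker lists covered pyramidal, CA1, CA3, dentate granule and inhibitory neurons, astrocytes, oligodendrocytes and their precursors, microglia, endothelium, pericytes and smooth muscle, fibroblasts, choroid plexus, ependyma and red blood cells. One further gene that the rule names is not reported here.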

Additional observations from a re-analysis of the deposited data

How the results depend on the processing

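Of the 33 genes, 0 passed in any comparison under any of the 24 alternatives, with a smallest adjusted p of 0.0623 (DESeq2, Nlgn3 in females). Counts over all genes moved more. For the average, 1 gene passed as reported, 0 with no filter on low values, 0 with the replicate block, 75 with DESeq2 (18 higher, 57 lower), 82 without the 3 libraries low in choroid plexus (7 higher, 75 lower), and 0 to 8 when each library was left out in turn. In males 0 passed as reported, 35 with DESeq2, 12 without those 3 libraries and 0 to 1 with each library left out. In females the counts were 0, 11, 1 and 0 to 1, and for the difference between the sexes 0, 3, 2 and 0 to 1. For males minus females 12 passed as reported, 48 with DESeq2 and 34 without the 3 libraries. The cause was not tested. Of 768 values of named genes, 758 kept direction and side of the threshold. The 10 that turned sign were sex differences of X-linked genes: Dlg3 at -0.0102 and Cnksr2 at -0.0369 without the 3 libraries, Cnksr2 at -0.0105 to 0.0506 and Iqsec2 at -0.0383 to 0.0246 with each library left out, and Iqsec2 at 1.52e-07 with limma-voom. Replicate numbers did not pair the libraries: 6 of 18 same-numbered pairs had a correlation over 0.1, and 3 libraries correlated best with their own number. A lone mutant male library is assumed to vary like the other groups. Depth was lower in every mutant library. Thinning reads to the lowest total moved the male median of the 33 genes by under 0.01. Thinning leaves the expected ratios between libraries as they are, so it cannot tell depth and genotype apart.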
